A study of Quercus robur with 12 samples.

Results

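The miRNAs described here are 4 from oak roots: qrb-miR2111a, qrb-miR535a, qrb-miR530a and qrb-miR2950a, each the only row of its family in the deposited table. They were chosen by these 4 row names, not by a cut on their values, though earlier results of these data were known. They make up 4 of the 75 miRNAs and 4 of the 12 single-row families among the 51 known miRNAs (prefix qrb-, left out below). The libraries hold small RNAs of the meristematic zone of root tips from pedunculate oak (Quercus robur) seedlings. Taproots (TR) and lateral roots (LR) were taken from control (CT) and drought-stressed (DS) plants, which gave the groups TR-CT, TR-DS, LR-CT and LR-DS with 3 libraries each. Control plants were fully watered, and drought meant 4 weeks with soil moisture lowered to 25% of the control, after 8 weeks of acclimatization and a first year of growth. Each replicate pooled 10 to 15 root tips. Seedlings were raised in containers and transplanted or sown as acorns, but the labels do not give the cultivation of a library. Whether cultivation differed between the groups, and its part in the results, is thus unknown. The table holds miRNAs only, so no marker gene of the root meristem could be looked at.

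Plant miRNAs are cut from hairpin precursors and guide ARGONAUTE proteins to transcripts with near-complete complementarity, which are then cleaved. miR2111 rises on phosphate starvation in Arabidopsis, and in Lotus japonicus it travels from shoot to root and silences an F-box/kelch-repeat gene that limits nodule number. miR535 is related in sequence to miR156, and in rice it represses SPL transcription factor genes. In rice, miR530 represses a gene with a PLUS3 domain and thereby limits grain yield. miR2950 has been described in grapevine and cotton, and no role is given for it here.

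Mature sequences were read from the study's degradome target list, which gives them by family name without the letter a. They are shown with the seed (bases 2 to 8) in capitals, counted on the strand that the list gives. No sequence of miR2950 was found in the sources used here.
miR2111: uAAUCUGCauccugaggucua
miR535: gUGCUCGUucucguugucaug
miR530: aGGUGCAGguacagacgcagg

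Each of the 3 is 21 nt long, and no seed, counted on the listed strands, is shared with another of the 35 sequences in the list. Their first bases are U, G and A, and their GC content is 42.9% for miR2111, 52.4% for miR535 and 61.9% for miR530. As listed, miR535 was 11 edits away from each of the listed miR156 and miR157 sequences. Its reverse complement was 4 and 5 edits from the miR156 sequences and 6 from miR157. The listed miR535 thus lay closer to the complement of these sequences, so its seed need not be that of the strand which represses SPL genes. The arm of the hairpin from which the listed miR535 comes, and the genome positions of the 4 precursors, are not given in the sources used here. The roles named above are those of the families, and whether the listed strands of miR535 and miR530 carry them was not tested.

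The target list also names transcripts with a site for 3 of the families, and 1 site each is shown. Bases that can pair with the miRNA in the listed alignment are in capitals. Gaps of that alignment are left out for miR535 and miR530, so only the miR2111 pairing can be read base by base.
site for miR2111 in Qrob_T0759270.2: UGuACCUCAGGAUGCAGAUUA
site for miR535 in Qrob_T0095890.2: gAUGACGGCGAGAAUGAGCC
site for miR530 in Qrob_T0755640.2: CCUGUGcgCUGUGCCUCACCU

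The site for miR2111 lies in a transcript annotated as an F-box/kelch-repeat protein, the kind of target known from Lotus. It forms 19 Watson-Crick pairs and 1 G-U pair, 18 of the Watson-Crick pairs in 1 run, and all 7 seed bases are in Watson-Crick pairs. The site for miR535 forms 16 Watson-Crick pairs and 3 G-U pairs with 5 of 7 seed bases in Watson-Crick pairs, and that for miR530 forms 17 and 2 with 6 of 7. Of the 2 listed sites of each of these families the one with more Watson-Crick pairs is shown; the other has 14 for miR535 (in Qrob_T0712850.2) and 16 for miR530 (in Qrob_T0004940.2). These matches describe sequence only, and cleavage was not analysed here.

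The depth behind the values was uneven. Totals per library lay between 160039 and 1267473 counts, and a single 16 nt sequence took 34.1% to 89.1% of them. Counts outside that sequence ranged from 300906 to 557180 in LR-CT, 120543 to 124387 in LR-DS replicates 1 and 2, and 26087 in LR-DS replicate 3; taproot libraries held 67863 to 223380. The taproot libraries held 2 that stood apart by lying closer to the other condition than to their own group. Over all miRNAs, TR-CT replicate 3 had a mean rank correlation of 0.791 with its own group and 0.873 with TR-DS. TR-DS replicate 2 had 0.799 with its own group and 0.889 with TR-CT. TR-DS replicate 3 had the lowest correlation with its own group of all 12 libraries, 0.785, and 0.754 with TR-CT. The part of these features in the results below was not tested, and values without them are given where they move a result by much. Replicate pairs differed by more than sampling noise, and a count above 3 was taken as detection. Floors and exact counting intervals measure the counting error alone, because PCR copies could not be told from separate molecules, whereas the intervals of log2FC also hold the spread between replicates.

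Among the 4, only miR535a was present in every library, while the other 3 were sparse. miR535a had 37 to 451 counts per library and 2279 in all, the 35th of the 75 totals. miR2111a had 114 counts in all, miR530a 111 and miR2950a 51, at ranks 64, 66 and 74. Each of these 3 was above 3 counts in 6 of the 12 libraries. TR-CT replicate 3 held no count of any of the 3, with 176026 counts outside the 16 nt sequence.

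**Figure D1:**
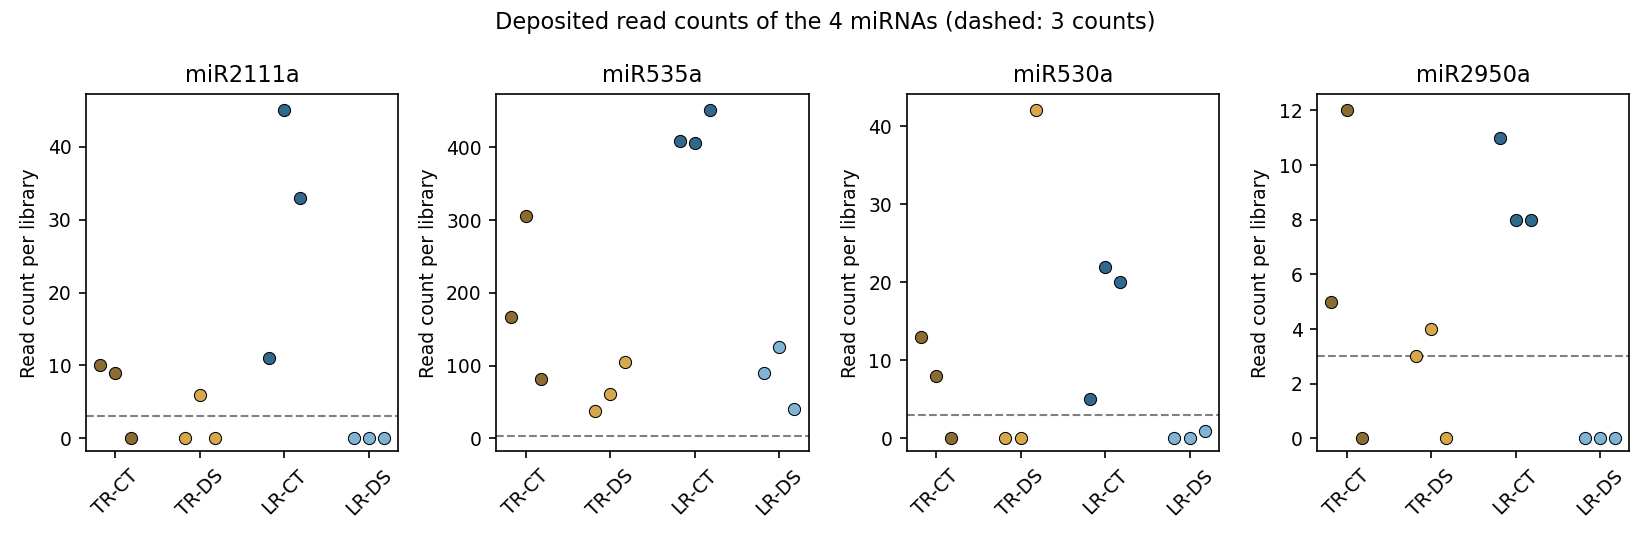
Deposited read counts (y axis, linear, with its own range in each panel) of the 4 miRNAs in the 3 libraries of each group (points, replicates 1 to 3 from left to right), with the floor of 3 counts dashed. LR-DS libraries had no count of miR2111a and miR2950a and at most 1 of miR530a, whereas miR535a had 40 to 126 counts there.

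The sharpest pattern was that of miR2111a, the phosphate-responsive family, which was found in every LR-CT library and in no LR-DS library. In LR-CT its counts were 11, 45 and 33, and LR-DS had 0, 0 and 0. TR-CT held 10, 9 and 0 counts, and TR-DS 0, 6 and 0. LR-CT alone held 78.1% of its counts, a share of raw counts not scaled for depth, and the lateral root groups did not overlap. The same share was 55.6% for miR535a, 52.9% for miR2950a and 42.3% for miR530a. The LR-CT libraries were also the deepest outside the most abundant sequence. Scaled to a library total of 1000000 (CPM, of all counts), miR2111a was at 14.4, 53.2 and 31.2 in the LR-CT libraries. Its count of 0 in LR-DS allows up to 3.32, 3.47 and 18.7. LR-DS replicate 3 was thus too shallow to show a level like that of LR-CT replicate 1.

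Drought in lateral roots was tested over all 75 miRNAs with edgeR's quasi-likelihood F test and Benjamini-Hochberg adjustment (FDR, threshold 0.05). miR2111a passed, lower in LR-DS, with FDR = 0.0184 and a fitted log2FC of -7.26 (SE 2.06), which depends on the prior count because one group is at 0 and gives no size of the change. Set against the mean floor of 3 counts per library in LR-DS, miR2111a was at least 1.89-fold lower on the TMM scale, at least 3.87-fold lower in CPM of all counts, and at least 1.08-fold lower in CPM of the counts outside the 16 nt sequence. Without LR-DS replicate 3 these bounds were 3.99-fold, 9.69-fold and 2.41-fold. The call was lost without LR-CT replicate 2 (FDR = 0.0729) or LR-CT replicate 3 (FDR = 0.0525) and was kept without any of the other 4 libraries; in edgeR's fit of all 12 libraries FDR was 0.188.

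Of the 75 miRNAs, 32% passed in this comparison, 22.7% as lower and 9.33% as higher, so that 1 of the 4 passing as lower is a share close to the background. The balance of all calls followed the scaling: 7 were higher and 17 lower with TMM factors, 2 and 33 with library size alone, and 14 and 9 with the library size outside the 16 nt sequence. Against TMM, the median log2FC over all 75 shifted by -1.16 with library size alone and by 0.64 with the library size outside the 16 nt sequence. With library size alone all 4 passed, at FDR = 0.00370 (miR2111a), 0.0368 (miR530a), 0.0393 (miR535a) and 0.0218 (miR2950a) in edgeR's test. Groups that did not overlap were found for 46.7% of the 75 miRNAs and for 2 of the 4, miR2111a and miR2950a. In bulk samples such as these, fewer cells of a type and less RNA per cell cannot be told apart.

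miR530a, whose family represses a PLUS3 gene in rice, was also nearly absent from the LR-DS libraries, but did not pass the test. LR-CT held 5, 22 and 20 counts and LR-DS held 0, 0 and 1. On the TMM scale the single count in the shallow LR-DS replicate 3 (7.98 CPM) lay above LR-CT replicate 1 (4.32 CPM), so the groups overlapped. The fitted log2FC was -3.37 (SE 1.70, 95% interval -7.02 to 0.27) with FDR = 0.143 in edgeR's test. From the pooled counts, 1 against 47, the ratio of LR-DS to LR-CT was 0.0689 on the TMM scale, with an exact 95% counting interval of 0.00171 to 0.403. In CPM of all counts the ratio was 0.0295 (0.000730 to 0.172), and outside the 16 nt sequence 0.111 (0.00274 to 0.647). The fitted log2FC was -6.47 (FDR = 0.0524) without LR-DS replicate 3, where LR-DS was at 0, and -2.20 (FDR = 0.349) without LR-DS replicate 1, the ends of the range over left-out libraries.

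miR2950a had the lowest total of the 4, with LR-CT counts of 11, 8 and 8 against 0, 0 and 0 under drought. The groups did not overlap, yet edgeR's test gave FDR = 0.0766. The mean LR-CT level of 6.98 CPM lay under the mean LR-DS floor of 11.7 CPM on the TMM scale, so no fold is given on that scale. In CPM of all counts miR2950a was at least 1.23-fold lower in LR-DS; without LR-DS replicate 3 it was at least 3.08-fold lower on that scale and at least 1.27-fold lower on the TMM scale, while outside the 16 nt sequence LR-CT stayed under the floor.

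The depth can be set against each count by asking how many reads LR-DS would hold at the pooled LR-CT rate. Outside the 16 nt sequence, miR2111a would have 7.86, 7.62 and 1.65 counts in LR-DS replicates 1 to 3, and 0 were found in each. miR530a would have 4.15, 4.02 and 0.87, with 0, 0 and 1 found. For miR2950a the expected counts were 2.38, 2.31 and 0.50, all under the floor of 3. Per total counts the expectations were higher, 30.1, 28.8 and 5.34 for miR2111a and 9.14, 8.75 and 1.62 for miR2950a.

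**Figure D2:**
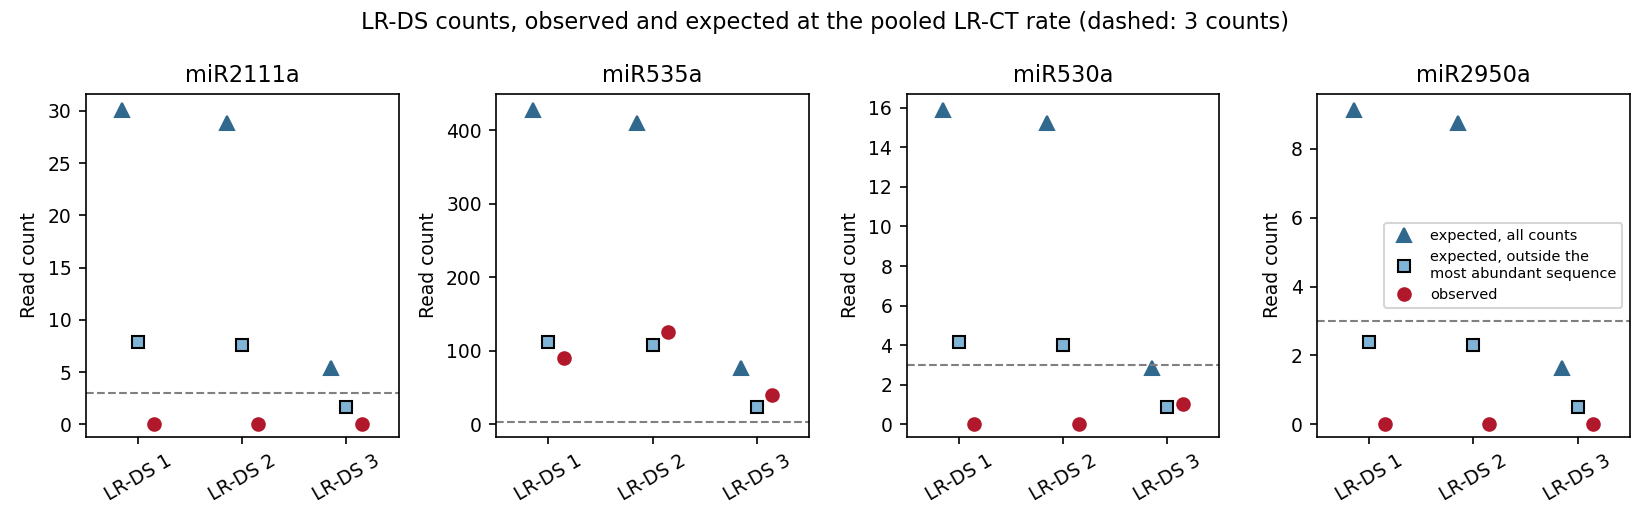
Observed counts in the 3 LR-DS libraries (circles) beside the counts expected at the pooled LR-CT rate per total counts (triangles) and per counts outside the 16 nt sequence (squares), with 3 counts dashed; y axes are linear with their own range. For miR2111a 0 was found where 7.86 or 30.1 counts would be expected in LR-DS replicate 1, while miR535a had 90 counts where 112 or 428 would be expected.

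miR535a, the SPL-related family, was the only one of the 4 with enough counts to follow in every library, and its lateral root difference depended on the scale. LR-CT libraries had 409, 406 and 451 counts, and LR-DS libraries 90, 126 and 40. In CPM of all counts this was 481 ± 54.2 (SD, n = 3) in LR-CT and 165 ± 77.0 (SD, n = 3) in LR-DS. With library size alone, 33 of the 75 miRNAs passed as lower and 2 as higher, so a drop on this scale is not particular to miR535a. In CPM of the counts outside the 16 nt sequence miR535a was at 969 ± 341 (SD, n = 3) and 1101 ± 407.7 (SD, n = 3), so that the groups overlapped and the order turned.

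With TMM factors the log2FC of miR535a in lateral roots was -0.46 (SE 0.54, 95% interval -1.60 to 0.69) with FDR = 0.529 in edgeR's test. With library size alone it was -1.56 (FDR = 0.0393), and with the library size outside the 16 nt sequence 0.17 (FDR = 0.740). The share of that sequence, 34.1% to 60.6% in LR-CT and 83.7% to 86.2% in LR-DS, moved with the lateral root groups, and its part in the differences was not tested.

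**Figure D3:**
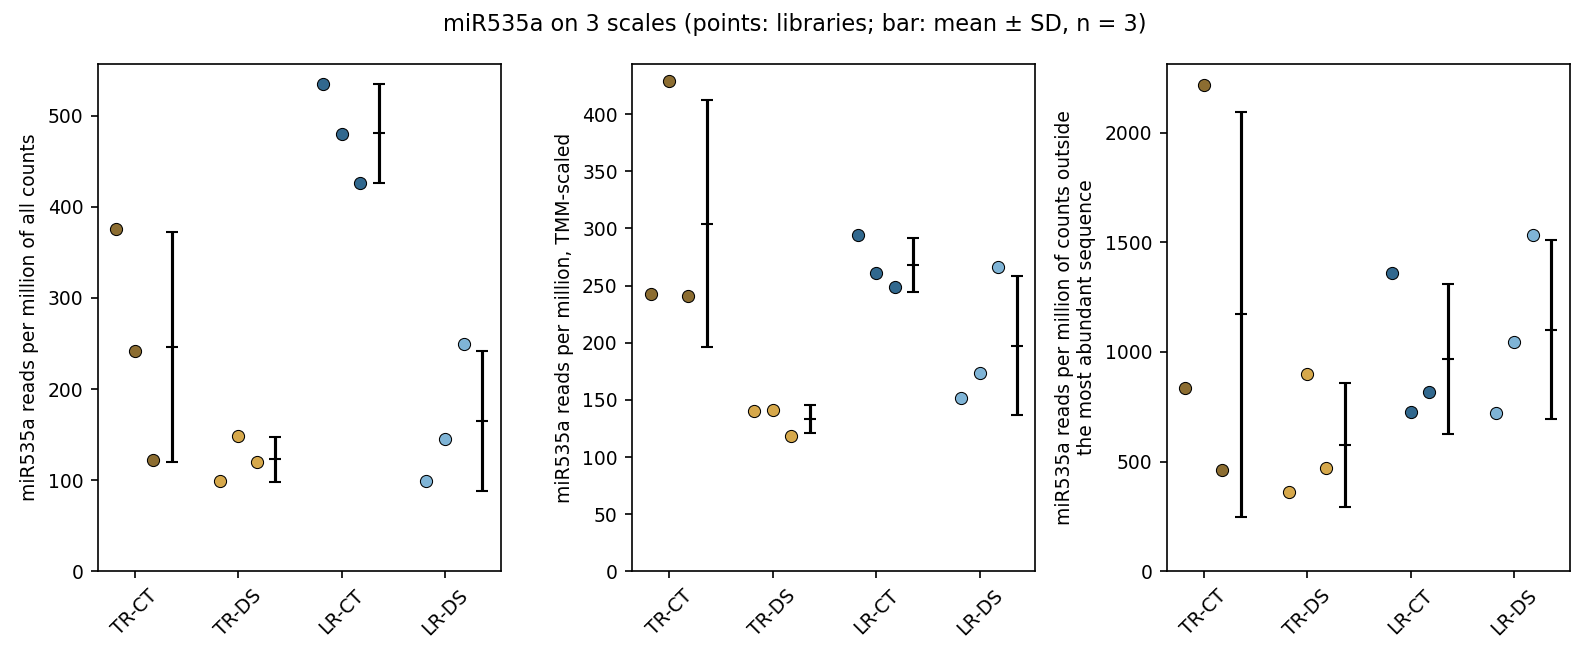
miR535a in CPM of all counts (left), with TMM scaling over all 12 libraries (middle) and in CPM of the counts outside the 16 nt sequence (right), for single libraries (points) and as mean ± SD of 3 libraries (bars), on linear axes from 0. LR-CT lies above LR-DS at left, at 481 against 165, but not at right, at 969 against 1101.

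In taproots, none of the 4 passed the test of drought against control, and 0% of all 75 miRNAs did in edgeR's test (3 had an unadjusted p up to 0.05; DESeq2 called 1). Without TR-CT replicate 3 and TR-DS replicate 2, left out together after the data were seen, 7 passed, none of them among the 4. Groups that did not overlap were found for 4% of all miRNAs and for none of the 4.

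The TR-CT libraries held 167, 306 and 81 counts of miR535a, against 37, 61 and 105 under drought. Its log2FC was -0.70 (SE 0.88, 95% interval -2.68 to 1.28, FDR = 0.997 in edgeR's test), and the groups overlapped, at 139 to 388 and 105 to 171 CPM on the TMM scale of the taproot libraries. With TMM factors over all 12 libraries the same counts gave 241 to 429 in TR-CT and 119 to 141 in TR-DS. In edgeR's fit of all 12 libraries the log2FC of miR535a was -1.19 with FDR = 0.585. No share of all miRNAs without overlap is given for these factors, so these ranges are not read as a trait of miR535a.

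For each of the 3 sparse miRNAs the sign of the taproot difference turned when a single library was left out. All 42 counts of miR530a in TR-DS came from replicate 3, the library least correlated with its own group, against 13, 8 and 0 in TR-CT. The log2FC of miR530a, 1.36 (SE 2.12), turned to -5.28 without that library, where TR-DS was at 0. The 6 counts of miR2111a in TR-DS came from replicate 2, 1 of the libraries that stood apart. Without that replicate and TR-CT replicate 3 the fitted log2FC of miR2111a was -5.96 (FDR = 0.0780 in edgeR's test), against -0.35 (SE 2.27) with all 6 libraries. The 2 left out were the only TR-DS library with counts of miR2111a and the only TR-CT library without. Leaving both out, after the data were seen, set 10 and 9 counts against 0 and 0. The negative sign was thus fixed by this choice, and the value depends on the prior count and gives no size. For miR2950a TR-CT had 5, 12 and 0 counts against 3, 4 and 0 under drought, with a log2FC of -0.06 (SE 2.08).

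Between root types under control conditions, none of the 4 miRNAs passed the test on the TMM scale. 0% of the 75 miRNAs passed in edgeR's test (5 at an unadjusted p up to 0.05; DESeq2 called 1), and 21.3% had groups that did not overlap, none of them among the 4. LR-CT against TR-CT gave a log2FC of 0.81 for miR2111a (SE 1.17, 95% interval -1.97 to 3.59) and -0.08 for miR535a (SE 0.64, 95% interval -1.59 to 1.44). For miR530a it was -0.25 (SE 1.20) and for miR2950a -0.56 (SE 1.21). With library size alone these became 0.59 for miR530a, 0.96 for miR535a and 0.59 for miR2950a, so the sign of all 3 turned. In CPM of all counts miR535a was 246 ± 126 (SD, n = 3) in TR-CT and 481 ± 54.2 (SD, n = 3) in LR-CT. With library size alone its FDR was 0.706 in edgeR's test, and the median log2FC of all 75 miRNAs shifted by 0.83 against TMM. Leaving out TR-CT replicate 3 gave 2 calls among all miRNAs, and log2FC values of 0.30 for miR2111a, -0.43 for miR535a, -0.73 for miR530a and -1.14 for miR2950a.

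Under drought stress, 0% of the 74 miRNAs tested passed between root types (4 at an unadjusted p up to 0.05; DESeq2 called 0), and 6.76% did not overlap, again with none of the 4. miR535a lay at a log2FC of 0.88 in LR-DS against TR-DS (SE 0.97, FDR = 0.901 in edgeR's test) and at 0.80 without TR-DS replicate 2. The single count of miR530a in LR-DS stood against 42 in TR-DS, a ratio of 0.0263 on the TMM scale (exact 95% counting interval 0.000651 to 0.155), but all 42 lay in 1 library. miR2111a and miR2950a were at 0 in LR-DS, and their mean levels in TR-DS were under the LR-DS floor, so no fold is given.

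The interaction asked whether drought changed a miRNA differently in lateral roots and taproots. In edgeR's test 0% of the 75 miRNAs passed (5 at an unadjusted p up to 0.05; DESeq2 called 1). For miR2111a the fitted difference was -5.87 (SE 3.20, 95% interval -12.8 to 1.07, FDR = 0.656), so the drop in lateral roots was not shown to differ from the change in taproots. Without TR-DS replicate 2 both drought groups were at 0 for miR2111a, and the fit gave no usable value (-0.95, SE 1717; -0.43, SE 693, when TR-CT replicate 3 was left out too). miR2950a gave -4.85 (SE 3.08), miR530a -3.77 (SE 2.87) and miR535a 0.74 (SE 0.91), with FDR between 0.656 and 0.946.

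Ordered by group on the TMM scale of all 12 libraries, the mean level of miR2111a was 18.3 ± 10.5 CPM in LR-CT, 9.04 ± 7.89 in TR-CT and 4.62 ± 8.01 in TR-DS (SD, n = 3 each), with LR-DS at 0; each step in this order was smaller than the larger of both SDs. For miR535a the order was TR-CT at 304 ± 108, LR-CT at 268 ± 23.7, LR-DS at 197 ± 60.7 and TR-DS at 133 ± 12.5; the steps from LR-CT to LR-DS and from there to TR-DS were larger than either SD. miR530a ran from TR-DS, 15.8 ± 27.4, through TR-CT, 10.0 ± 9.49, and LR-CT, 9.59 ± 5.41, to LR-DS, 2.22 ± 3.84, with the last step alone larger than either SD. For miR2950a the order was TR-CT at 8.02 ± 8.43, TR-DS at 6.86 ± 6.04, LR-CT at 5.82 ± 1.85 and LR-DS at 0, with the last step alone larger than the SDs of both its groups. LR-DS has no spread there because all its counts were 0. The floors of LR-DS on this scale were 5.07, 4.13 and 20.0 CPM in replicates 1 to 3, so the depth does not resolve this step. The same floors hold for miR2111a and miR530a.

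Beside the 4, 3 lists of other miRNAs were read. Among the 4 SPL relatives of miR535 (miR156 and miR157, which silence SPL genes), 1 passed in lateral roots, as lower, beside 22.7% of all 75. This was miR156a, with LR-CT counts of 36, 211 and 68 against 0, 0 and 0 under drought (FDR = 0.00399 in edgeR's test). miR156c showed a like pattern, 10, 7 and 18 counts against 0, 0 and 0, without passing (FDR = 0.0592). The most abundant relative, miR156b, went from 826, 1372 and 1377 counts to 771, 628 and 173, and its log2FC was 0.57 (FDR = 0.338). The median fitted log2FC of the list was -2.72. It was 0.25 once members with at most 3 counts in every library of a group were set to their bound. A bound under 1-fold was set to a log2FC of 0.

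Set to their bounds in the same way, which also holds for miR530a, the 4 described here had a median of -0.23 in place of -4.50. The bounds of miR530a and miR2950a were under 1-fold, so both were set to 0 by this rule. The median of all 75 miRNAs, -0.29, is of fitted values without bounds and is not a like measure. Of 9 nutrient-responsive miRNAs (in Arabidopsis, miR395 responds to sulfate and miR398 and miR408 to copper shortage; miR399 and miR827 have no row), 1 rose in LR-DS and none fell, beside 9.33% and 22.7% of all 75, and the list's median log2FC was 0.30. The riser was miR395b, with LR-CT counts of 2, 1 and 0 against 7, 19 and 0 under drought (FDR = 0.0294 in edgeR's test). Of the other 8 single-row families, which share miR157a and miR408a with the other lists, 1 rose and 2 fell, shares near those of all 75, with a median log2FC of -0.75. miR162a, which targets the DICER-LIKE1 transcript, rose (log2FC 1.73), and miR159a and miR319a, which act on MYB and TCP genes, fell (log2FC -1.71 and -1.74). In taproots no miRNA of the 3 lists passed.

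Across the 12 libraries the 4 did not rise and fall together, with Spearman correlations of TMM-scaled levels between -0.01 and 0.49 for their 6 pairs. Of 46 known miRNAs above 3 counts in at least 6 libraries, the nearest to miR2111a were miR171c (0.88), miR171e (0.85) and miR390a (0.78). miR535a lay nearest to miR164c (0.72), miR171a (0.68) and miR390a (0.55), miR530a to miR160c (0.59) and miR2950a to miR164e (0.61). All points share libraries, depth and scaling, and the many ties at 0 enter these values, which are descriptions over 12 libraries.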

How the data were processed

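The authors enriched small RNAs of 18 to 30 nt, removed adapters with Cutadapt (minimum length 15 nt) and quantified them with ShortStack; the deposited values are raw read counts per mature miRNA, without normalization. Groups were taken from sample titles and library names; cultivation was not used because no label gives it per library. In R 4.3.3, edgeR 4.0.16 fitted 1 mean per group to each comparison separately, after TMM scaling and a minimum of 1 count, with quasi-likelihood F tests adjusted over all miRNAs; the interaction used all 12 libraries. The SE was the absolute log2FC divided by the square root of F. The prior count was 2 for log2 CPM and edgeR's default for the fitted log2FC. Depth ranged from 160039 to 1267473 counts, the level of 3 counts being the floor. Alternatives were library size, RLE factors, the library size outside the most abundant sequence, DESeq2 1.42.0, filterByExpr, the replicate block, 1 fit of all libraries and each library left out. The code was tested on simulated data in which only miRNAs with more counts than the sparse members were changed, so it does not cover these. The 4 members were always named; the others came from 3 lists and the 3 nearest by Spearman correlation. Members and lists were chosen with earlier results of these data known. Degradome sequences were used, its values were not. Figures were drawn with matplotlib 3.10.9 in Python 3.11.15.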

Additional observations from a re-analysis of the deposited data

How the results depend on the processing

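The members' directions were recomputed under 281 alternatives over all comparisons: 247 kept direction and side of the threshold, 27 turned sign, 3 passed and 4 lost the threshold. Low counts limit the 3 sparse miRNAs, and the cause of each change was not tested.

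Counts of all miRNAs past the threshold changed as follows. In taproots (0), 1 passed with library size alone, 1 with DESeq2, and 0 to 7 with libraries left out, 7 without TR-CT replicate 3 and TR-DS replicate 2. In lateral roots (24), 0 passed in 1 fit of all libraries and 14 to 32 with a library left out (14 without LR-CT replicate 2, 15 without LR-CT replicate 3). Between root types under control (0), library size alone, DESeq2 and filterByExpr each gave 1, and leaving out a library 0 to 2; under drought (0), 0 to 2. The interaction (0) gave 1 with library size alone, 1 with DESeq2 and 0 to 1 with libraries left out. Members past the threshold in lateral roots (1) were 4 with library size alone, 0 in 1 fit of all libraries and 0 to 1 with a library left out. With counts drawn to the smallest library, member and library pairs above 3 counts fell from 9 to 4 in TR-CT and from 12 to 6 in LR-CT. filterByExpr removed sparse members: miR530a and miR2950a were not tested there in lateral roots.

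Signs turned in taproots for miR2950a with RLE factors (0.18) and DESeq2 (0.24), in lateral roots for miR535a outside the most abundant sequence (0.17), between root types under control with library size alone (0.59 for miR530a, 0.96 for miR535a, 0.59 for miR2950a) and in the interaction for miR535a with library size alone (-0.55). With libraries left out, log2FC in taproots ran from -5.28 to 2.22 for miR530a, -5.96 to 0.29 for miR2111a and -1.37 to 1.36 for miR2950a; in lateral roots from -0.50 to 0.10 for miR535a; between root types under control from -0.73 to 0.51 for miR530a, -0.43 to 0.80 for miR535a and -1.14 to 0.88 for miR2950a; under drought from -6.57 to 2.07, and in the interaction from -7.38 to 2.90, for miR530a.

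In taproots, deviations of same-numbered samples correlated at -0.27, 0.71 and 0.37 for replicates 1 to 3, so pairing could not be told. In lateral roots they correlated at -0.25 to -0.02, which shows no pairing. The replicate block gave 2 calls in taproots and 17 in lateral roots, where 0 members passed (miR2111a FDR = 0.147 in edgeR's test). In taproots the block gave -1.15 for miR530a and 0.20 for miR2950a, and between root types under control 0.24 for miR530a, 0.14 for miR535a and 0.14 for miR2950a.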
